A study of Homo sapiens with 8 samples.

Results

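The genes described here are 10 receptor tyrosine kinases of the ERBB, insulin and IGF, MET, EPH and FGF receptor families: EGFR, ERBB2, ERBB3, ERBB4, IGF1R, INSR, MET, EPHA2, FGFR1 and FGFR2. They were chosen by name, matched by Ensembl identifier, and make up 10 of the 57905 genes in the deposited expression table. RNA was sequenced from prostate cancer cells of 2 kinds. EnzaR cells, which are resistant to the androgen receptor antagonist enzalutamide, were kept in 10 uM enzalutamide and given 40 nM of siRNA for 48 h, either against YAP1 (siYAP1, 2 libraries) or a control sequence (siNC, 2 libraries). LNCaP cells, an androgen-responsive line from a lymph node metastasis that the labels call enzalutamide-sensitive, were kept without the drug and received for 48 h extracellular vesicles (EVs) from EnzaR cells. The EV donors had been depleted of YAP1 (EV-siYAP1), depleted of COUP-TFII (EV-siCII) or given control siRNA (EV-siNC), and another LNCaP culture received vehicle (control), with 1 library each. Neither a single-clone origin of the EnzaR line nor separate cultures for the replicates is given in the sources used here. The p-values therefore describe spread between libraries that may be technical.

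YAP1, which the Hippo pathway holds in check, co-activates transcription and reaches DNA through TEAD factors. The receptors span the cell membrane, bind a ligand outside the cell and carry a kinase domain inside it. EGFR and ERBB4 bind EGF-like and neuregulin ligands, ERBB2 binds no known ligand and acts as a dimerisation partner, and ERBB3 has little kinase activity of its own and passes neuregulin signals to PI3 kinase when paired with ERBB2. IGF1R and INSR bind IGFs and insulin and can form hybrid receptors, MET binds HGF, EPHA2 binds ephrin-A ligands on neighbouring cells, and FGFR1 and FGFR2 bind fibroblast growth factors. In prostate cancer cells these receptors feed the PI3 kinase and ERK pathways, which act beside androgen receptor signalling.

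Total counts ran between 16682669 and 18248939 per library, so 3 counts corresponded to 0.164 to 0.18 CPM, a unit of counts relative to the library total. YAP1, the siRNA target, was at 6 and 7.33 CPM in siYAP1 libraries, against 59.6 and 49 CPM in siNC libraries (log2 fold change -3.02, edgeR adjusted p = 2.07e-10). All 10 prostate luminal marker genes exceeded 1 CPM in both lines, with summed levels of 4255 to 4441 CPM in EnzaR libraries and 3400 to 3693 CPM in LNCaP libraries, but KLK3, which encodes prostate-specific antigen, was at 1173 to 1221 CPM in EnzaR libraries and 43.1 to 47.9 CPM in LNCaP libraries. Markers of basal or androgen receptor-negative prostate lines summed to 0.899 to 4.22 CPM in EnzaR libraries and 276 to 300 CPM in LNCaP libraries, with TP63 and KRT5 at 0 counts throughout. The intermediate filament gene VIM made up nearly all of that sum in LNCaP libraries, whereas in EnzaR libraries KRT7 was at 0.719 to 2.77 CPM and VIM at 0 to 1.99 CPM. LNCaP cells are known for strong KLK3 and little VIM, and the libraries labelled LNCaP go against this in both genes. Values for the lines therefore compare the libraries as labelled. Fibroblast markers summed to 18.9 to 25.4 CPM in EnzaR libraries and 110 to 128 CPM in LNCaP libraries, mostly COL1A1, and leukocyte and endothelial markers to 8.03 to 9.75 CPM and 11.1 to 13.7 CPM, mostly VWF.

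Among the 10 receptors, ERBB2 and ERBB3 had the most RNA in both lines. This ranking is limited to the 10. For IGF2R, a receptor outside them, siNC libraries averaged 281 CPM, against 213 CPM for ERBB2, without scaling for length. On the authors' FPKM scale, which divides by transcript length and library total, the order of levels within every library was ERBB2, then ERBB3, then EPHA2. ERBB2 was at 17.2 and 18.6 FPKM in siYAP1 libraries and 20.8 and 20.6 FPKM in siNC libraries, against 52.4 to 58.7 FPKM over the 4 LNCaP libraries. ERBB3 was at 12.8 and 14.6 FPKM in siYAP1 libraries and 16.2 and 15 FPKM in siNC libraries, against 31.4 to 34 FPKM in LNCaP libraries. FPKM is scaled by the library total alone, so differences between siYAP1 and siNC are read from the scaled CPM further below. There the ERBB3 groups overlapped, at 122 and 133 CPM with siYAP1 and 138 and 131 CPM with siNC. The 10 receptors together summed to 39 to 51 FPKM in EnzaR libraries and 104 to 113 FPKM in LNCaP libraries. ERBB2 and ERBB3 contributed 72.5% to 77% of that sum in EnzaR libraries and 79.5% to 82.6% in LNCaP libraries. The ratio of ERBB2 to ERBB3 FPKM was 1.27 to 1.37 in EnzaR libraries and 1.63 to 1.78 in LNCaP libraries, with no overlap between the lines. FPKM carries no correction for GC content: between EnzaR siNC and LNCaP control cells, the log2 fold changes of ERBB2 and ERBB3 were -1.50 and -1.07 without a GC and length correction and -0.68 and -0.63 with it, so the difference in their ratio depends on that correction.

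**Figure D1:**
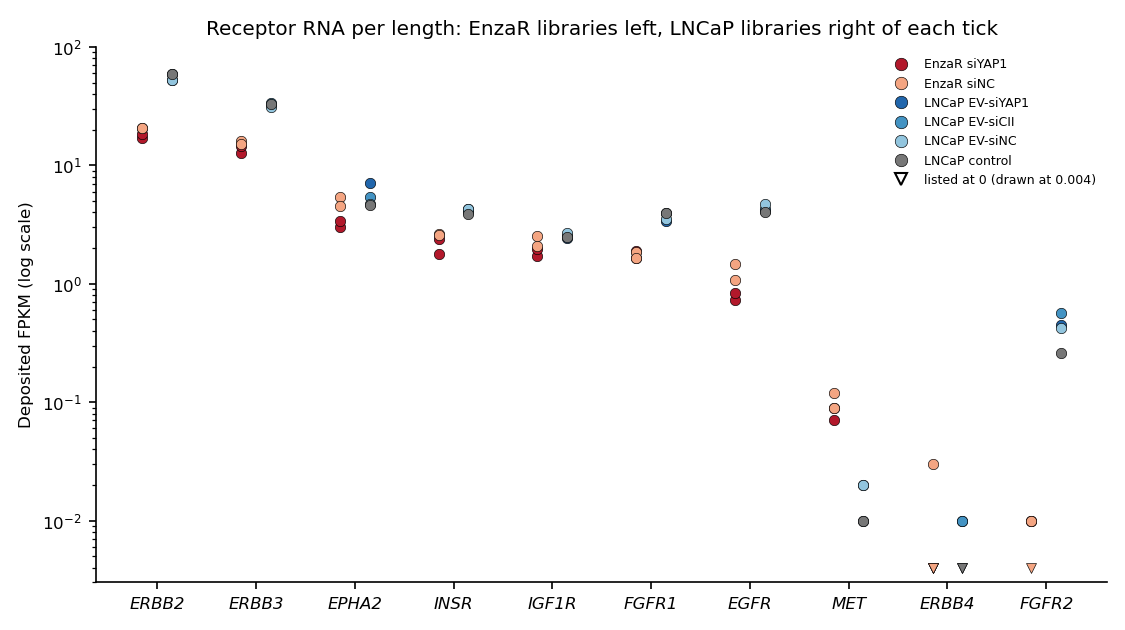
Deposited FPKM on a log scale for the 10 receptors in each library, ordered by their mean over EnzaR libraries, with EnzaR libraries (siYAP1, siNC) left and LNCaP libraries right of each tick. ERBB2 and ERBB3 lie at the top in all 8 libraries, MET is the one receptor with its EnzaR points all above its LNCaP points, and triangles mark values listed at 0.

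Below EPHA2, the order differed between the lines. INSR averaged 2.09 ± 0.44 FPKM in siYAP1 libraries and 2.6 ± 0.014 FPKM in siNC libraries (SD, n = 2 each). IGF1R averaged 1.83 ± 0.18 FPKM in siYAP1 libraries and 2.3 ± 0.32 FPKM in siNC libraries, and FGFR1 1.76 ± 0.17 and 1.75 ± 0.14 FPKM (SD, n = 2 each). In siYAP1 cells the ranges of INSR, IGF1R and FGFR1 overlapped, and in siNC cells the means of INSR and IGF1R differed by less than the SD of IGF1R. Within every EnzaR library, however, INSR stood above IGF1R and IGF1R above FGFR1. EGFR stood seventh in all 4 EnzaR libraries, at 0.73 and 0.84 FPKM with siYAP1 and 1.48 and 1.07 FPKM with siNC. In LNCaP libraries EGFR, at 4.03 to 4.71 FPKM, stood beside INSR at 3.89 to 4.25 FPKM and FGFR1 at 3.42 to 3.96 FPKM. The ranges of EGFR and INSR overlapped, as did those of INSR and FGFR1, over cultures that each had another treatment. The INSR to IGF1R ratio of FPKM was 1.03 to 1.25 in EnzaR libraries and 1.57 to 1.74 in LNCaP libraries.

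ERBB4, MET and FGFR2 were at or near the limit of detection in at least one line. ERBB4, the neuregulin receptor, had 0 and 1 counts in siYAP1 libraries and 6 and 0 counts in siNC libraries, against 0 to 3 counts in LNCaP libraries. MET had 8 and 12 counts in siYAP1 libraries and 11 and 15 counts in siNC libraries, against 1 or 2 counts in each LNCaP library. Over the pooled counts, MET was 8.18-fold higher in EnzaR than in LNCaP libraries, with an exact binomial 95% interval of 3.48 to 23.4 that covers counting error only. FGFR2 had 1 and 2 counts in siYAP1 libraries and 2 and 0 counts in siNC libraries, against 34 to 75 counts in LNCaP libraries. The pooled EnzaR to LNCaP ratio of FGFR2 was 0.0237 (0.00762 to 0.0561). MET and FGFR2 thus ran in opposite directions, and neither line held more than 5 CPM of either. For ERBB4 the pooled ratio, 1.24, had an interval of 0.358 to 4.48.

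YAP1 depletion in EnzaR cells was followed by lower EGFR and EPHA2 RNA, and no receptor of the 10 was called higher. The question of this comparison is which genes depend on YAP1 in the resistant cells. CPM here and in the plot of levels by library were scaled by the trimmed mean of M values (TMM) over all 8 libraries, and the test was edgeR's quasi-likelihood test on the 4 EnzaR libraries, with Benjamini-Hochberg adjustment over 14948 genes. Of the 8 receptors with enough counts to be tested (all but ERBB4 and FGFR2), 2 were lower and 0 higher at an adjusted p under 0.05, and 0 were higher at an unadjusted p under 0.05 or with DESeq2 or limma-voom. Among all genes tested, 6.22% were lower and 5.83% higher. Over the 8 receptors the median log2 fold change was -0.214, against -0.0254 over all genes tested.

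EGFR (ENSG00000146648, hg19 chr7:55086714-55324313, plus strand), the EGF receptor, was at 10.4 and 11.4 CPM in siYAP1 libraries, against 18.9 and 13.9 CPM in siNC libraries. Both siYAP1 values lay below both siNC values, and the siNC replicates lay farther apart than the siYAP1 replicates. The log2 fold change was -0.59 (SE 0.175, edgeR adjusted p = 0.0337). EPHA2 (ENSG00000142627, hg19 chr1:16450832-16482582, minus strand), an ephrin-A receptor, was at 13.9 and 14.8 CPM in siYAP1 libraries, against 22.3 and 18.9 CPM in siNC libraries. Again the groups did not overlap, and the log2 fold change was -0.52 (SE 0.151, edgeR adjusted p = 0.0305). The groups were also apart for ERBB2, IGF1R and INSR, which were not called. The share of all genes with groups apart is not given here, so the lack of overlap adds no support. Both calls sat close to the threshold. With DESeq2's Wald test the adjusted p was 0.0557 for EGFR and 0.0509 for EPHA2, so neither was called. A correction for transcript GC content and length left EGFR at -0.46 (edgeR adjusted p = 0.107) and EPHA2 at -0.66 (edgeR adjusted p = 0.0148). Leaving out 1 library ended both calls for siYAP1 replicate 1 (edgeR adjusted p = 0.288 for EGFR and 0.266 for EPHA2), siYAP1 replicate 2 (0.0955 and 0.0863) and siNC replicate 1 (0.33 and 0.197). Without siNC replicate 1 the EGFR log2 fold change was -0.36.

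Promoter sequences of EGFR and EPHA2, the receptors that were called, are shown because YAP1 acts through TEAD factors, whose core motif is GGAATG, read from the opposite strand as CATTCC. Each is the 250 bases before an annotated RefSeq start on build GRCh38.p14, written 5′ to 3′ on the strand of the gene, with motif matches in capitals.
EPHA2, chr1:16156070-16156319, minus strand: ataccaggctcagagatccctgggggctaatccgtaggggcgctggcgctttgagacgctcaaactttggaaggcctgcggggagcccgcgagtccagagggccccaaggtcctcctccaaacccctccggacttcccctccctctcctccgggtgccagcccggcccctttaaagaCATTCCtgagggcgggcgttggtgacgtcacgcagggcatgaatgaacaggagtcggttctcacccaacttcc
EGFR, first start, chr7:55018767-55019016, plus strand: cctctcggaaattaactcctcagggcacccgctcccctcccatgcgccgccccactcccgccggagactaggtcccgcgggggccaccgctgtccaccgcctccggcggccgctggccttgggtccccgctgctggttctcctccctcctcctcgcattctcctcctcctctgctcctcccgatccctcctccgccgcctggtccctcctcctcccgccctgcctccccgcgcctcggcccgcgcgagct
EGFR, second start, chr7:55109589-55109838, plus strand: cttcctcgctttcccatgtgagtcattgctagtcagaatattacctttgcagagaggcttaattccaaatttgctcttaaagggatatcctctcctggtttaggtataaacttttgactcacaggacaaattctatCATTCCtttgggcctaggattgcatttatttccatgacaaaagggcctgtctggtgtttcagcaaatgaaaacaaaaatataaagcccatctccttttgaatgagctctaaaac
EPHA2 held 1 match, which began 73 bases before the start. In EGFR, the first window held none and the second, at a start further into the gene, held 1 match that began 114 bases before it. Promoters were matched for 8 of the 10 receptors (13 windows, ERBB3 and FGFR1 not among them). The windows of ERBB2, ERBB4, IGF1R, INSR and MET held no match, and 2 of the 5 windows of FGFR2 held 1 each. Of all 35116 windows in the table, 11.9% held the motif on either strand. A match is a description of these letters only, and no binding was measured.

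**Figure D2:**
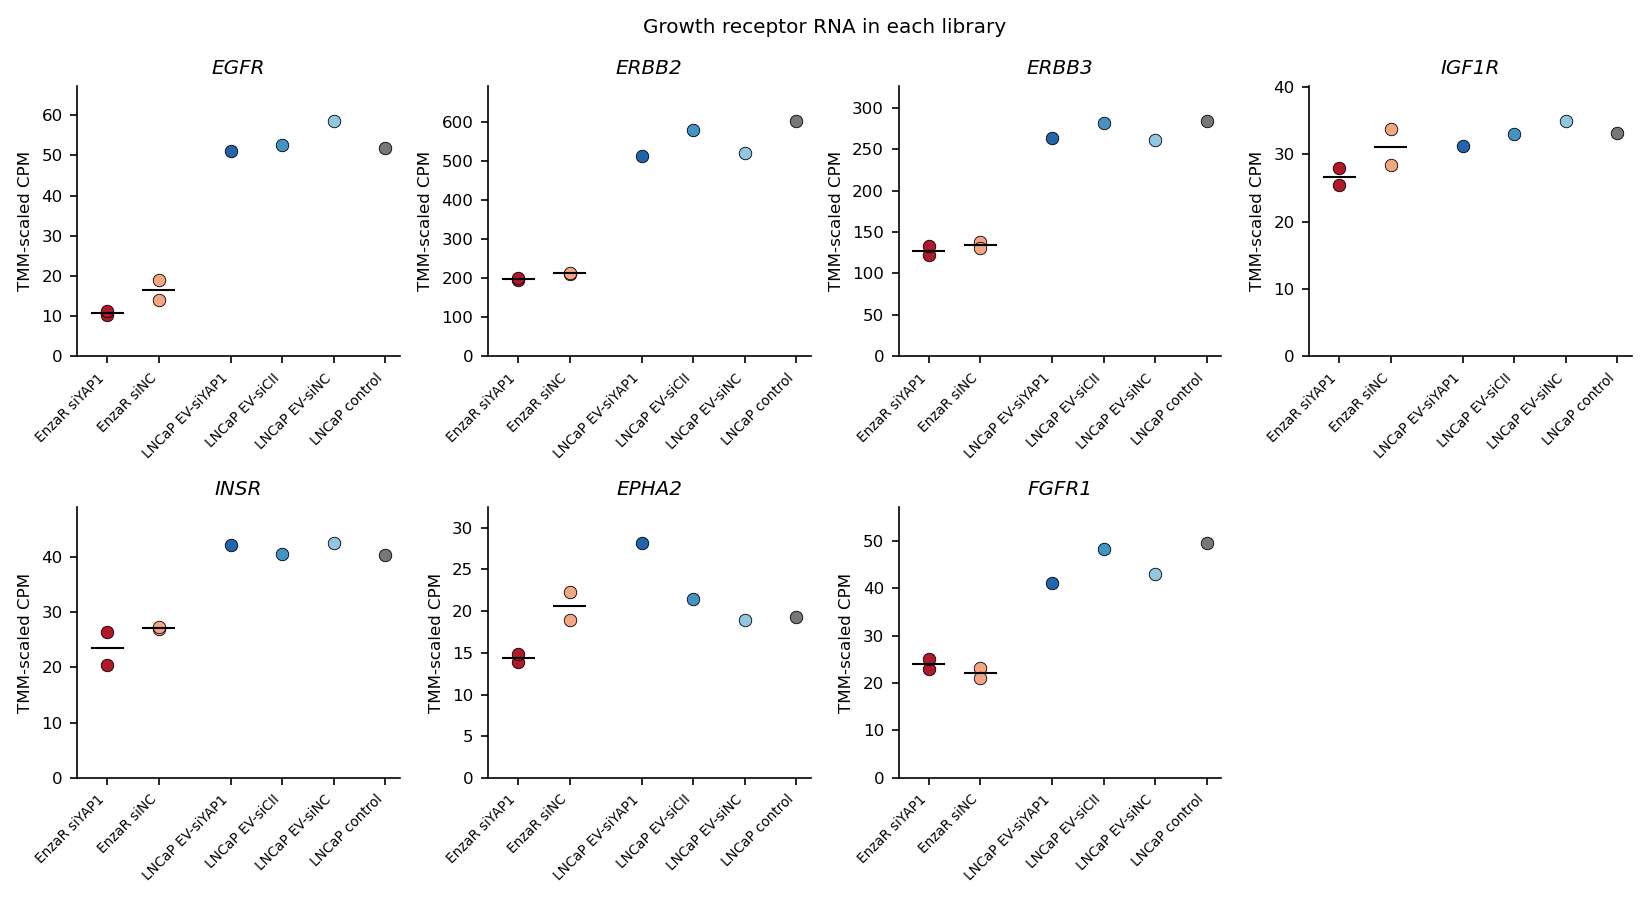
CPM scaled over 8 libraries for the 7 receptors above 5 CPM on average, with 1 point per library and a line at the mean of each EnzaR group (n = 2); each vertical axis starts at 0. The siYAP1 points lie below the siNC points for EGFR and EPHA2, and also for ERBB2, IGF1R and INSR, which were not called. The EV-siYAP1 point of EPHA2 lies at 28.2 CPM, above the other LNCaP points.

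The other 6 receptors tested were not called. ERBB2 was at 195 and 202 CPM in siYAP1 libraries, against 212 and 214 CPM in siNC libraries (log2 fold change -0.11, SE 0.0923, edgeR adjusted p = 0.465). ERBB3 overlapped between the groups, at 122 and 133 CPM with siYAP1 and 138 and 131 CPM with siNC (-0.08, SE 0.0967). The most abundant receptors therefore had fold changes with the smallest errors among the 8. IGF1R was at 25.4 and 27.9 CPM in siYAP1 libraries and 33.7 and 28.4 CPM in siNC libraries (-0.22, SE 0.131), and INSR at 20.4 and 26.5 CPM and 27 and 27.3 CPM (-0.21, SE 0.14). Neither pair of groups overlapped, but the siYAP1 replicates of INSR differed more from each other than replicate 2 did from siNC. FGFR1 had a value of 0.11 (SE 0.135) with overlapping groups, and MET one of -0.22 (SE 0.542) on 8 to 15 counts per library. An adjusted p above the threshold does not show that these receptors were unaffected, and for MET the SE was nearly as large as the EGFR change itself.

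**Figure D3:**
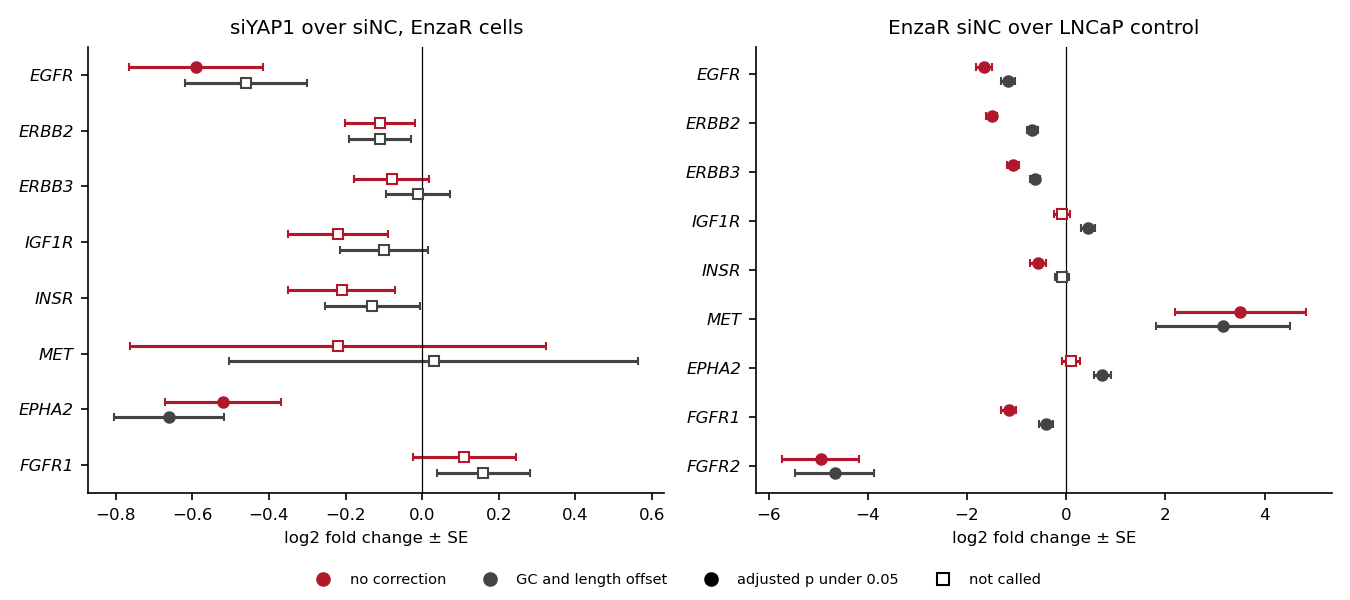
Log2 fold changes with SE for the receptors tested, siYAP1 over siNC in EnzaR cells on the left and EnzaR siNC over LNCaP control on the right, without (red) and with (grey) a GC and length correction; filled circles have an edgeR adjusted p under 0.05. In the left plot EPHA2 is called in both settings (-0.52 and -0.66) and EGFR only without the correction (-0.59 and -0.46), while in the right plot MET (3.51 and 3.16) is called higher in both.

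Lists of genes that act with the receptors were counted in the same fit, in which 6.22% of genes were lower and 5.83% higher. Among 7 ephrin genes tested, 1 was higher and 0 lower: EFNA3, which encodes an ephrin-A ligand of EPHA receptors, averaged 105.9 ± 6.41 CPM in siYAP1 cells and 63.3 ± 4.11 CPM in siNC cells (SD, n = 2 each; scaled over the 4 EnzaR libraries as are the list genes below), a log2 fold change of 0.74 (SE 0.103, edgeR adjusted p = 0.000403). The call on EFNA3 ended without siYAP1 replicate 1 (edgeR adjusted p = 0.0564). Among 19 adaptor and PI3 kinase subunit genes, 3 were lower and 0 higher, with a list median of -0.329 against -0.0254 for all genes. PIK3R1, the regulatory subunit p85-alpha of PI3 kinase, averaged 20.7 ± 2 CPM in siYAP1 cells and 34.4 ± 0.181 CPM in siNC cells (-0.73, edgeR adjusted p = 0.00229). PIK3CB, a catalytic subunit, had a log2 fold change of -0.56 (edgeR adjusted p = 0.0102), and PTPN11, the phosphatase SHP2 that carries receptor signals to RAS, one of -0.43 (edgeR adjusted p = 0.0131). With the GC and length correction 0 of these 19 genes were lower, PIK3R1 standing at -0.36 (edgeR adjusted p = 0.0885), and without siYAP1 replicate 1 the number was also 0.

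Among 14 feedback inhibitors and turnover genes tested, 2 were lower and 1 higher. LRIG3, of a family of membrane proteins that interact with receptor kinases, had a log2 fold change of -0.73 (edgeR adjusted p = 0.0131), and CBLB, a ubiquitin ligase, one of -0.67 (edgeR adjusted p = 0.0399). PTPN1, the phosphatase that removes phosphate from INSR, averaged 65.1 ± 5.04 CPM in siYAP1 cells and 42.9 ± 4.5 CPM in siNC cells (0.60, edgeR adjusted p = 0.00381). The lower number was 0 with the GC and length correction, and neither direction kept a call without siYAP1 replicate 1. None of 10 other receptors of the same families, 5 ERBB ligands, 5 IGF ligands and binding proteins, 5 genes of HGF and its activation, 3 FGF ligands and co-receptors or 9 ERK output genes was called in either direction by edgeR, DESeq2 or limma-voom, and 5 of these genes had an unadjusted edgeR p under 0.05. Of the basal or androgen receptor-negative line markers, 1 of 2 tested was lower, the keratin gene KRT7 (-1.69, edgeR adjusted p = 0.00952, at 0.801 CPM in siYAP1 cells and 2.6 CPM in siNC cells). The KRT7 call ended without siYAP1 replicate 1 (edgeR adjusted p = 0.14), and DESeq2 gave KRT7 no adjusted p. Of the luminal markers, 0 of 10 was called by edgeR (5 at an unadjusted p under 0.05, and 1 with DESeq2). The basal or androgen receptor-negative list summed to 0.899 to 3.37 CPM in siYAP1 libraries and 3.88 to 4.22 CPM in siNC libraries, and its part in the results was not tested. The fibroblast marker COL3A1 had 58 counts in siYAP1 replicate 2 and 0 counts in the other 3 EnzaR libraries. DCN, LUM and COL1A2 were at 0.387, 0.331 and 0.331 CPM in that same library and at 0 counts in the other 3. The part of these transcripts in the differences between siYAP1 and siNC cells was not tested, and the EGFR and EPHA2 values without siYAP1 replicate 2 are given above.

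**Figure D4:**
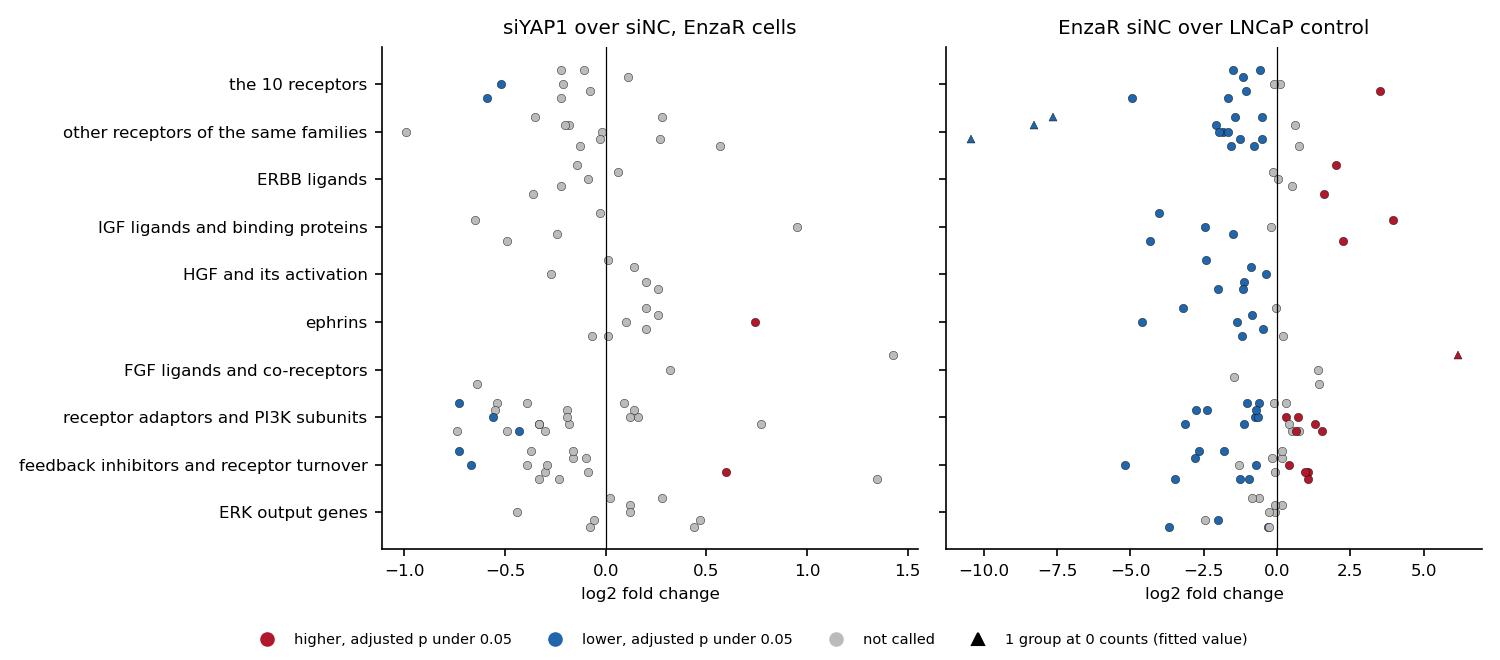
Log2 fold changes of every tested gene of the 10 receptors and of 9 pathway lists, siYAP1 over siNC in EnzaR cells on the left and EnzaR siNC over LNCaP control on the right, 1 point per gene; red is higher and blue lower at an edgeR adjusted p under 0.05, and triangles are fitted values of genes at 0 counts in 1 group. EFNA3 is the red ephrin point at 0.74 on the left, and the other receptors on the right lie mostly below 0.

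EnzaR cells carried less RNA of 6 of the receptors than the cells labelled LNCaP control and more MET. The comparison sets the siNC libraries against the 1 LNCaP control library in a fit over all 8 libraries (17537 genes), in which the control library is assumed to vary as the EnzaR groups do. The line, the drug in the medium and the siRNA treatment differ together and cannot be told apart. Of 9 receptors tested (all but ERBB4), 6 were lower and 1 higher at an edgeR adjusted p under 0.05. Among all genes tested 28.6% were lower and 29.8% higher, 58.4% in either direction, so a call in itself sets no receptor apart here. MET passed the count filter through EnzaR libraries and FGFR2 through LNCaP libraries, the side where each is high. The median log2 fold change was -1.07 over the 9 receptors and -0.00217 over all genes. As given above, VIM and COL1A1 were lower and KLK3 higher in EnzaR than in LNCaP libraries, and their part in these differences was not tested.

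EGFR was at 18.9 and 13.9 CPM in siNC libraries, against 51.9 CPM in the LNCaP control (log2 fold change -1.66, SE 0.159, edgeR adjusted p = 1.6e-09). ERBB2 was at 212 and 214 CPM in siNC libraries, against 602 CPM in the control (-1.50, SE 0.109, edgeR adjusted p = 8.84e-12). ERBB3, its usual partner, was at 138 and 131 CPM, against 284 CPM in the control (-1.07, SE 0.114, edgeR adjusted p = 8.74e-09). For these 3 ERBB receptors, every EnzaR library lay below every LNCaP library. FGFR1 was at 23.3 and 21.1 CPM in siNC libraries, against 49.6 CPM in the control (-1.16, SE 0.145, edgeR adjusted p = 1.48e-07). INSR was at 27 and 27.3 CPM, against 40.4 CPM in the control (-0.57, SE 0.156, edgeR adjusted p = 0.00261). Both also had all EnzaR values below all LNCaP values. The share of all genes separated in this way is not given here, so the separation is a description and sets no receptor apart.

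FGFR2 had 2 and 0 counts in siNC libraries, against 34 in the control, an inverse ratio of 34.8 with a counting interval of 8.92 to 299 (edgeR adjusted p = 5.19e-06). MET had 11 and 15 counts in siNC libraries, against 1 in the control, a ratio of 12.7 with a counting interval of 2.09 to 521 (edgeR adjusted p = 0.0248). The MET call was lost with DESeq2 (adjusted p = 0.168) and without siYAP1 replicate 1, siYAP1 replicate 2 or siNC replicate 2 (edgeR adjusted p = 0.0517, 0.0523 and 0.0953). IGF1R, at 33.7 and 28.4 CPM in siNC libraries and 33.1 CPM in the control, and EPHA2, at 22.3 and 18.9 CPM in siNC libraries and 19.2 CPM in the control, were not called. Their log2 fold changes were -0.09 (SE 0.156) and 0.10 (SE 0.179).

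The correction for GC content and transcript length moved these values. With it, EGFR was at -1.18, ERBB2 at -0.68, ERBB3 at -0.63, FGFR1 at -0.41, FGFR2 at -4.67 and MET at 3.16, all still called. INSR was at -0.09 and no longer called (edgeR adjusted p = 0.637). IGF1R then stood at 0.44 (edgeR adjusted p = 0.0111) and EPHA2 at 0.73 (edgeR adjusted p = 0.00043), both higher in EnzaR siNC cells. The median over all genes moved to 0.0988. The lower EGFR, ERBB2, ERBB3 and FGFR1 levels in EnzaR cells thus kept their direction in both settings, but differed less between the lines with the correction. FGFR2 and MET also kept their direction. Each had passed the count filter through the line where it is high, so this adds no support for them.

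Among the receptors' relatives, 13 of 15 tested were lower in EnzaR siNC cells and 0 higher, but EPHA3, EPHA6, EPHA7 and EPHA8 reached the count filter in LNCaP libraries alone and MST1R in EnzaR libraries alone. Entry through the libraries of 1 line favours a higher level on that side. The same holds in the lists that follow for EFNA2, IGFBP4, IGFALS, HGFAC, SPRY1, SPRY2, DUSP6, ETV4 and ETV5 through LNCaP libraries and for KL through EnzaR libraries. EPHA8 and DUSP6 nevertheless had log2 fold changes of 0.74 and 0.16 in siNC cells over the control, the other direction, and neither was called. The counts of these lists are therefore descriptions, to be read against the 28.6% of all genes that were lower and the 29.8% that were higher. EPHA6, EPHA7 and EPHA3, ephrin-A receptors, had 0 counts in both siNC libraries, against 175, 39 and 25 counts in the control. Setting the siNC group at 3 counts, EPHA6 was at least 119-fold lower, EPHA7 at least 26.6-fold lower and EPHA3 at least 17-fold lower in siNC cells. EPHB6, an ephrin-B receptor, was at 0.769 CPM in siNC cells and 3.26 CPM in the control (-2.07, edgeR adjusted p = 0.00047). Of 8 ephrins, 6 were lower and 0 higher. The largest differences were EFNA2, at 0.44 CPM in siNC cells and 10.9 CPM in the control (-4.61, edgeR adjusted p = 1.93e-11), and EFNB3, at 7.67 CPM and 71.5 CPM (-3.22, edgeR adjusted p = 1.18e-15), followed by EFNB2 (-1.38) and EFNB1 (-1.21). EFNA3, which was higher after YAP1 depletion, was at 65.5 CPM in siNC cells and 66.7 CPM in the control. With the GC and length correction the lower number was 9 of the 15 relatives, and of the ephrins 5 were lower and 2 higher.

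Ligands did not share one direction. Of 5 ERBB ligands, 2 were higher and 0 lower: EGF, the ligand of EGFR, at 7.43 CPM in siNC cells and 2.42 CPM in the control (1.61, edgeR adjusted p = 8.72e-05), and NRG3, a ligand of ERBB4, at 1.16 CPM and 0.281 CPM (2.01, edgeR adjusted p = 0.0273). NRG3 was not called with DESeq2 (adjusted p = 0.199), nor without either siNC replicate (edgeR adjusted p = 0.0541 and 0.083). Of 7 IGF ligands and binding proteins, 2 were higher and 4 lower. IGFBP3, the main carrier of IGFs in serum, averaged 154 ± 21.9 CPM in siNC cells (SD, n = 2), against 9.9 CPM in the control (3.96, edgeR adjusted p = 5.3e-16). IGF2 was at 0.88 CPM in siNC cells and 4.89 CPM in the control (-2.47), IGFBP4 at 0.11 CPM and 2.36 CPM (-4.34), and IGFALS, the acid-labile subunit of the IGF complex, at 0.247 CPM and 4.11 CPM (-4.01). All 6 genes tested of HGF and its activation were lower in EnzaR siNC cells, among them MST1, the ligand of a MET relative (-2.42), and HGFAC, a protease that activates HGF, at 0.248 CPM in siNC cells and 1.01 CPM in the control. The serine protease gene ST14, at 166 CPM in siNC cells and 367 CPM in the control (-1.15), and SPINT1, its inhibitor, at 226 CPM and 497 CPM (-1.14), were lower together. HGFAC was called neither with DESeq2 (adjusted p = 0.225) nor with the GC and length correction (edgeR adjusted p = 0.234), nor without siYAP1 replicate 1, siYAP1 replicate 2 or siNC replicate 1 (edgeR adjusted p = 0.0535, 0.0526 and 0.157). Of 4 FGF ligands and co-receptors, 1 was higher and 0 lower: KL, the co-receptor klotho, at 0.495 CPM in siNC cells and 0 counts in the control, a call that ended without siNC replicate 1 (edgeR adjusted p = 0.0588) and a gene that did not pass the filter without siYAP1 replicate 1. After the GC and length correction 4 of the HGF list were lower and 1 higher, and 2 of the FGF list were higher and 1 lower.

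Downstream, 5 adaptor and PI3 kinase genes of 19 were higher and 9 lower, with a median of -0.103, the higher share being near the 29.8% of all genes. The largest differences were GAB2, a docking protein, at 1.62 CPM in siNC cells and 14.3 CPM in the control (-3.13, edgeR adjusted p = 2.73e-10), IRS2, a substrate of INSR and IGF1R (-2.77), GRB10, an adaptor that dampens INSR and IGF1R signalling, at 127 CPM and 662 CPM (-2.39, edgeR adjusted p = 1.56e-15), and GRB14, a related adaptor (1.54, not called with DESeq2, adjusted p = 0.0675). Of 17 feedback inhibitors and turnover genes, 4 were higher and 8 lower. SOCS2, a suppressor of cytokine signalling (-5.18), SPRY1, a Sprouty inhibitor of ERK signalling (-3.47), SPRED3, of a related family (-2.79), and DUSP4, a phosphatase of ERK (-2.67), were the largest. Of 11 ERK output genes, 3 were lower and 0 higher (2 and 2 after the GC and length correction), a lower share near the 28.6% of all genes: PHLDA1 (-3.69), JUN, at 101 CPM in siNC cells and 414 CPM in the control (-2.03), and CCND1, cyclin D1 (-0.32). The CCND1 value turned to 0.10 with the GC and length correction (edgeR adjusted p = 0.438), and its call ended without either siNC replicate (edgeR adjusted p = 0.072 and 0.132).

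In LNCaP cells given EnzaR vesicles, the largest ratio among the 7 receptors with at least 10 CPM was that of EPHA2 with EV-siYAP1. None of the 7 was past 2-fold, but neither were nearly all genes at that level (at most 0.112% were), so this count sets no receptor apart. Each culture is 1 library, so there is no test, and the ratios compare libraries. The intervals cover counting error only. The design asks what vesicles from resistant cells, and the loss of YAP1 or COUP-TFII in their donors, do to sensitive cells. Of the 10 receptors, 7 had at least 10 CPM in either library of each pair. In EV-siYAP1 against EV-siNC, 0 of these 7 were past 2-fold, with 0.0553% of all genes at that level past it. In EV-siCII against EV-siNC the numbers were 0 of 7 and 0.0781%, and in EV-siNC against control 0 of 7 and 0.112%. Replicates of EnzaR siYAP1 and of EnzaR siNC, measured the same way, had 0.0892% and 0.0325% of genes past 2-fold. All 3 comparisons use the EV-siNC library, so their values are not independent.

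**Figure D5:**
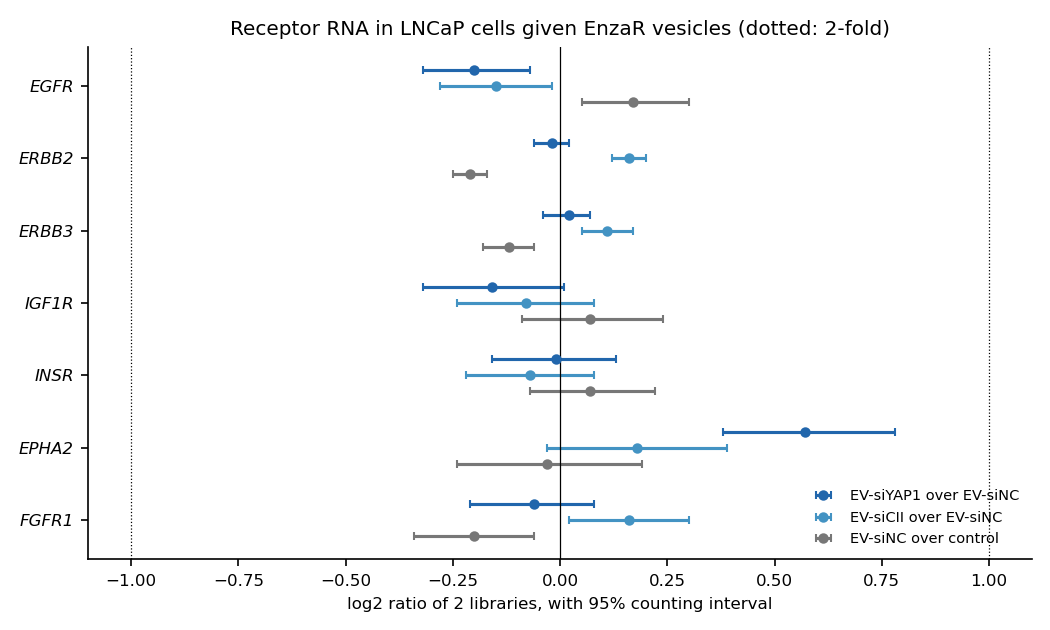
Log2 ratios between pairs of LNCaP libraries for the 7 receptors with at least 10 CPM, with 95% counting intervals; dotted lines mark 2-fold. EPHA2 in EV-siYAP1 over EV-siNC lies at 0.57, the other ratios between -0.21 and 0.18.

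EPHA2 was at 28.2 CPM in the EV-siYAP1 library and 18.9 CPM in the EV-siNC library, 521 and 354 counts, a log2 ratio of 0.57 (0.38 to 0.78). That ratio stood at the 99.7th percentile of the genes with at least 10 CPM and was 0.56 after the GC and length correction. Between EnzaR replicates, EPHA2 differed by -0.24 (-0.45 to -0.03) for siNC and by 0.09 (-0.18 to 0.36) for siYAP1. The EV-siCII library was at 21.5 CPM and the control at 19.2 CPM, so the EV-siYAP1 library stood above the other LNCaP libraries. Its direction was the opposite of that in EnzaR cells depleted of YAP1 directly, where EPHA2 was lower. The treatments differ in kind and the difference was not tested. EV-siYAP1 and EV-siNC libraries had 61.9 and 67.3 CPM of YAP1.

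The remaining ratios were small. With EV-siYAP1 against EV-siNC, EGFR was at 51.1 CPM and 58.5 CPM (-0.20, -0.32 to -0.07) and IGF1R at 31.3 CPM and 34.9 CPM (-0.16, -0.32 to 0.01). ERBB2, ERBB3, INSR and FGFR1 had ratios of -0.02, 0.02, -0.01 and -0.06. With EV-siCII against EV-siNC, ERBB2 was at 580 CPM and 520 CPM (0.16, 0.12 to 0.20), FGFR1 at 48.2 CPM and 43 CPM (0.16, 0.02 to 0.30) and EGFR at 52.7 CPM and 58.5 CPM (-0.15, -0.28 to -0.02). With EV-siNC against control, ERBB2 was at 520 CPM and 602 CPM (-0.21, -0.25 to -0.17), FGFR1 at 43 CPM and 49.6 CPM (-0.20, -0.34 to -0.06) and EGFR at 58.5 CPM and 51.9 CPM (0.17, 0.05 to 0.30). Ratios of that size also separated replicates for some receptors: between the EnzaR siNC replicates, EGFR differed by -0.44 (-0.68 to -0.20) and IGF1R by -0.25. Between the EnzaR siYAP1 replicates they differed by 0.13 and 0.14. ERBB2 replicates lay closer together, at 0.01 for siNC and 0.05 for siYAP1, and those of FGFR1 differed by -0.14 and 0.13. Over all genes with at least 10 CPM, the log2 ratio of EV-siNC against control ran with GC content (Spearman's rho -0.553, 8847 genes, a description across genes), and after the correction ERBB2 was at -0.14 and FGFR1 at -0.16.

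FGFR2, below the 10 CPM level, had 59, 75 and 57 counts with EV-siYAP1, EV-siCII and EV-siNC, against 34 in the control. Its log2 ratio was 0.07 (-0.48 to 0.62) for EV-siYAP1 against EV-siNC, 0.42 (-0.09 to 0.95) for EV-siCII against EV-siNC and 0.64 (0.03 to 1.33) for EV-siNC against control. All 3 vesicle libraries were above the control, which is 1 library. None of the genes of the pathway lists with at least 10 CPM was past 2-fold in any of the 3 comparisons, among them all 8 ephrins. Of all genes at that level, at most 0.112% were. Some list genes had larger ratios than EPHA2. IGFBP3 was at 6.28 CPM with EV-siYAP1 and 12 CPM with EV-siNC (-0.92), and its ratio for EV-siCII against EV-siNC was -0.70. FRS2 was at 0.83 for EV-siNC against control, and at 0.46 after the GC and length correction.

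Reads of overlapping genes could not be told apart for ERBB2 in particular, because the strand setting of counting is not given in the sources used here. MIEN1 and PGAP3, on the opposite strand and overlapping ERBB2, had 1660 to 2189 and 292 to 688 counts, against 2954 to 10697 counts for ERBB2. Genes overlapping the other receptors had at most 19 counts.

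The genes with the profile most like each receptor over the 8 libraries were found by the root mean square (RMS) difference of centred log2 CPM, among 10611 genes with a symbol and a mean of at least 5 CPM. Among them, CLSTN1 was near ERBB3 (RMS 0.032), and TSPAN3 (0.042) and NOP14-AS1 (0.062) were nearest to ERBB2. IGF1R was nearest to UBP1 (0.045) and CRKL (0.052), and FGFR1 to CTC1 (0.05) and PPP6R2 (0.051). INSR was nearest to KANSL1 (0.047) and to IGF2R (0.051), itself a receptor that binds IGF2. STAG3, near EGFR (0.12), and AUH and PAK1, nearest to EPHA2 (both 0.11), lay farther off.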

How the data were processed

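For each of the 8 libraries the authors deposited raw gene counts and FPKM in 1 table. Build hg19 (GRCh37) and the tools HTSeq 0.6.1, HISAT2 2.0.1, cutadapt 1.9.1 and DESeq2 are listed, without roles, in the submitters' processing notes. The deposited FPKM equalled count over length and library total within 0.0051 for all 463240 values. Receptors and lists were chosen with earlier results of these data known. The rule for named genes takes all 10 receptors, YAP1 and NR2F2, up to 4 called genes per list with the largest fold change, and the 2 nearest profiles, of which some are not reported here. Counts were filtered (filterByExpr), scaled by TMM and tested with edgeR 4.0.16 (robust quasi-likelihood, Benjamini-Hochberg, threshold 0.05) in R 4.3.3. Alternatives were DESeq2 1.42.0, limma 3.58.1, other scalings, no filter, single EnzaR libraries left out and a replicate block. Another was an offset for GC and length (mgcv 1.9.3), with a GC value for 97.3% of tested genes. Between single LNCaP libraries, log2 ratios used a prior count of 2 and exact binomial 95% intervals, which cover counting error only. The tests were also run on simulated counts with the same spread setting for every gene. That run cannot show how the calls hold in these data. RefSeq promoters (GRCh38.p14) were searched on both strands. NR2F2, which encodes COUP-TFII, had log2 fold changes of -0.03 with siYAP1 and -0.21 between lines, neither called. PECAM1, of the leukocyte and endothelial markers, was not analysed here.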

Additional observations from a re-analysis of the deposited data

How the results depend on the processing

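With 2 libraries a group, the number of genes called after YAP1 depletion moved with the processing, and the cause was not tested. Against 872 higher and 930 lower (48.4% of calls higher), library totals alone gave 293 and 1416 (17.1%, with a median of all genes of -0.129), DESeq2 895 and 576 (60.8%), the GC and length offset 399 and 180 (68.9%), and leaving out 1 library 15 to 940 higher and 11 to 829 lower, the lowest pair without siYAP1 replicate 1 and 234 higher without siNC replicate 1. Receptors called lower were 2, against 0 with DESeq2, 1 with the offset and 0 to 2 without 1 library. The MET value there reversed to 0.03 with the offset, 0.02 with offset and block, and 0.04 without siNC replicate 2 (range without 1 library -0.44 to 0.04).

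The labels do not say that replicate numbers pair the libraries, and same-numbered libraries did not deviate together (correlation -0.0799 over 14948 genes, -0.222 over 8843 genes above 10 CPM). The replicate block gave 564 genes higher and 846 lower and left 2 receptors lower, and the block with the offset gave 412 and 242 with 1 receptor lower. The crossed pairing, chosen after seeing the data, gave 1518 and 1302 with 2 receptors lower.

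Between the lines, only EnzaR libraries were left out in turn, and the control side remained 1 library. The 6 receptors called lower stayed below 0 in each of these fits, from INSR at -0.58 to -0.56 to FGFR2 at -8.09 to -4.04. Receptors called higher were 1, against 0 with DESeq2 and 3 with the offset. With the offset the lower receptors numbered 5, INSR no longer among them. IGF1R reversed to 0.44 with the offset and 0.03 without siNC replicate 2 (range without 1 library -0.22 to 0.03). EPHA2 reversed to -0.07 against the mean of the 4 LNCaP libraries, -0.33 with both EnzaR groups against them (edgeR adjusted p = 0.00605) and -0.02 without siNC replicate 1 (range without 1 library -0.02 to 0.22). CCND1 reversed to 0.10 with the offset. DESeq2 called 3 adaptor genes higher and 5 lower, against 5 and 9. Against the mean of the 4 LNCaP libraries 5 ERK output genes were lower, against 3.

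In LNCaP cells the genes past 2-fold changed most with the minimum level. At 1 CPM in place of 10 they were 113 higher and 169 lower for EV-siYAP1, 118 and 140 for EV-siCII, and 194 and 141 for EV-siNC against control. For EV-siNC against control the genes higher were 5, against 3 with DESeq2 size factors, 9 with library totals and 2 with the offset. No receptor at the floor crossed 2-fold. Depth limits ERBB4, MET and FGFR2, with under 20 counts in at least 4 libraries each.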
